A study of Homo sapiens with 12 samples.

Results

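The APOBEC3 cytidine deaminases were followed across 4 lines of the human pancreatic carcinoma cell line MIA PaCa-2. The 7 genes of the family, APOBEC3A, B, C, D, F, G and H, were taken by symbol from a table of 63086 genes, and all 7 were found. A gene was tested when its mean over all libraries reached 10 normalised counts. These are reads per gene after division by the size factor of the library. Of the family 5 genes passed, among 15987 genes tested, and APOBEC3A and APOBEC3H did not. APOBEC3D passed only through the KO lines, so that counts over the 5 tested members describe them and support nothing further.

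The study asked which transcripts depended on TIMP1, the gene of a secreted protease inhibitor with cytokine functions. WT was the unmodified MIA PaCa-2 line. CRISPR Control had been through CRISPR-Cas9 editing, a method that cuts DNA at a chosen site, and had acquired a silent point mutation that leaves the protein sequence as it was. TIMP1 KO 1 and TIMP1 KO 2 were knockout clones with TIMP1 edited in exon 4. All 4 lines were grown in the same medium with no further treatment, and total RNA was sequenced in 3 libraries per line, labelled as biological replicates. Since each KO line was 1 clone, a difference between clones and an effect of TIMP1 loss cannot be told apart in either line alone. The p-values rest on the spread between libraries of a line, and nothing in the labels says that these came from separate cultures.

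APOBEC3 enzymes turn cytosine into uracil in single-stranded DNA. They form part of the intrinsic defence against retroviruses and mobile elements, whose reverse-transcribed DNA they mutate or block, and several members are induced by interferon. APOBEC3A and APOBEC3B can reach the DNA of the cell itself and are regarded as sources of cytosine mutations in carcinomas.

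Libraries held 26908701 to 36093563 reads in genes. TIMP1 ran from 1136 to 1192 normalised counts in KO 2, from 1562 to 1624 in KO 1, from 2285 to 2959 in CRISPR Control and from 3290 to 3837 in WT, so the RNA was lowered and not absent in the KO lines. KRT8, KRT18 and VIM, which MIA PaCa-2 cells express, were abundant in all 4 lines, and CDKN2A, which this line has lost, had 0 reads in every library. CDH1, which had been listed as low in these cells, had a mean of 84.9 normalised counts in KO 2, 128 in KO 1, 1189 in WT and 1424 in CRISPR Control. Of 8 blood cell markers 3 had more than 3 reads in any WT library and 2 did so in each other line, and their summed level ran from 38.2 to 55.2 in WT, 38.5 to 40.6 in CRISPR Control, 76.9 to 92.9 in KO 1 and 159.6 to 175 in KO 2. CD14 averaged 36.2 normalised counts in WT and 161 in KO 2 and was the most abundant of them in every line, MS4A1 and HBB had 0 reads, and CD3E had at most 2 reads in any library.

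All 7 genes lie on the plus strand of chromosome 22 within 151 kb, from 38952741 to 39104067 (GRCh38), in the order A, B, C, D, F, G, H. APOBEC3A (ENSG00000128383.14, 38952741 to 38963184, 5 exons in its canonical transcript), an interferon-inducible enzyme of myeloid cells, had at most 1 read in any library and 0 in CRISPR Control. APOBEC3H (ENSG00000100298.16, 39097224 to 39104067), a restriction factor with a single deaminase domain, had at most 2 reads in any library of WT, CRISPR Control and KO 1. In TIMP1 KO 2 its 3 libraries had 0, 6 and 1 reads, and the 6 reads of replicate 2 made up most of the 7 in that line. Both genes lay at or near 3 reads, which is as many as a library with 0 counts could be expected to hide, so no difference between lines was detectable at this depth. That limit covers counting error only. The related genes APOBEC1, APOBEC4 and APOBEC2 were as scarce, with 0 reads of APOBEC1, at most 1 read of APOBEC4 and at most 5 of APOBEC2 in any library.

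The remaining 5 members followed different courses across the lines. APOBEC3G and APOBEC3F were highest in KO 2 and next highest in KO 1, with all 6 KO libraries above all 6 libraries of WT and CRISPR Control. APOBEC3D, at a far lower read count, had the same arrangement. APOBEC3C was lower than WT in KO 1 and higher than WT in KO 2, and APOBEC3B stood apart in CRISPR Control, where it held 24.7% of its WT level. An arrangement with the 6 KO libraries on top was found in 3 of the 5 tested members and in 12.3% of all tested genes.

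**Figure D1:**
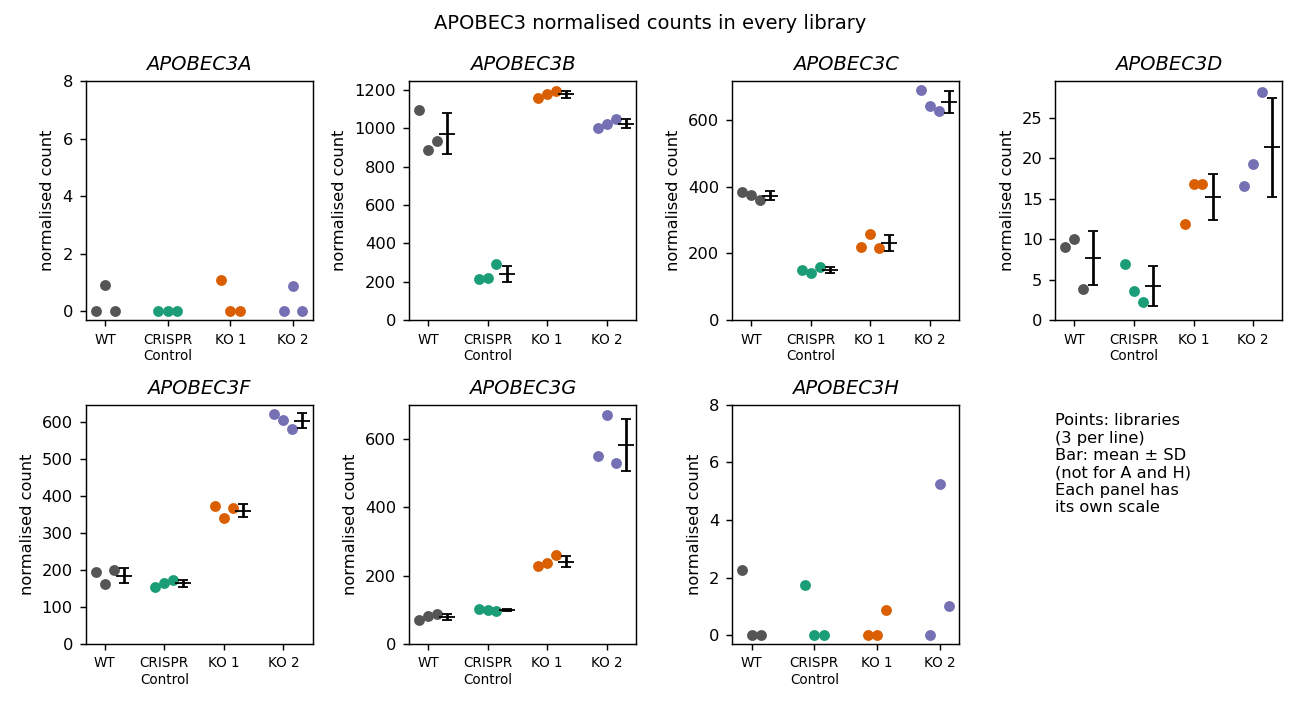
Normalised count of each APOBEC3 gene (y axis, linear, 1 scale per panel) in every library, by line (x axis, KO 1 and KO 2 being the TIMP1 knockout clones). Points are libraries, 3 per line, and bars give the mean and SD, which are left out for APOBEC3A and APOBEC3H. APOBEC3F and APOBEC3G step up from WT and CRISPR Control to KO 1 and on to KO 2, while APOBEC3B is low in CRISPR Control only.

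APOBEC3G (ENSG00000239713.9, 39077067 to 39087743, 8 exons) encodes a cytoplasmic enzyme with a pair of deaminase domains that is packaged into retroviral particles and mutates the viral DNA. The WT libraries held 69.0, 82.7 and 85.7 normalised counts and the CRISPR Control libraries 102, 98.4 and 95.6. Values were 227, 237 and 259 in KO 1 and 552, 671 and 529 in KO 2. No library of one line overlapped the range of another line, and the order was WT, CRISPR Control, KO 1, KO 2. The means were 79.2 ± 8.89, 98.7 ± 3.16, 241 ± 16.3 and 584 ± 76.3 in that order (SD, n = 3 each).

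Against WT, the fitted log2 fold change of APOBEC3G was 1.60 in KO 1 (SE 0.13, limma adjusted p 1.96e-08) and 2.86 in KO 2 (SE 0.13, limma adjusted p 2.37e-12), or 3.03-fold and 7.29-fold. Only 1.74% of tested genes rose at least as far in KO 1 and 1.67% in KO 2. KO 2 exceeded KO 1 by 1.27 (SE 0.13, limma adjusted p 4.45e-07). Against CRISPR Control the changes were 1.28 in KO 1 (limma adjusted p 9.91e-08) and 2.55 in KO 2 (limma adjusted p 4.12e-12). CRISPR Control itself lay 0.32 above WT (SE 0.13, limma adjusted p 0.0492), a marginal call that was lost in 19 of 22 alternative settings. CD14, the only blood cell marker that reached the minimum of the test, was likewise highest in KO 2 and next highest in KO 1. It changed by 1.18 in KO 1 and 2.13 in KO 2 against WT, and its part in the result was not tested. PTPRC and LYZ, with few reads, were lower in both KO lines than in WT. In bulk RNA, more cells with a transcript and more transcript per cell cannot be told apart.

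APOBEC3F (ENSG00000128394.17, 39040604 to 39055972, 7 exons), the adjacent gene and likewise a restriction factor with a pair of deaminase domains, moved in the same direction by smaller factors. Its libraries held 192, 161 and 198 normalised counts in WT and 153, 165 and 173 in CRISPR Control. The counts rose to 372, 339 and 367 in KO 1 and to 620.4, 605 and 581 in KO 2. WT and CRISPR Control overlapped, and the KO lines were separate from them and from each other.

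APOBEC3F averaged 602 ± 19.8 in KO 2, 359 ± 17.8 in KO 1, 184 ± 20.04 in WT and 163 ± 9.90 in CRISPR Control (SD, n = 3 each). The log2 fold change against WT was 0.97 in KO 1 (SE 0.11, limma adjusted p 1.41e-06) and 1.71 in KO 2 (SE 0.11, limma adjusted p 2.56e-10), which corresponds to 1.95-fold and 3.28-fold. Between the KO clones the difference was 0.75 (limma adjusted p 2.93e-05). CRISPR Control did not pass the threshold against WT, with a log2 fold change of -0.16 and a 95% interval from -0.40 to 0.07 (limma adjusted p 0.222). Measured from CRISPR Control, APOBEC3F was higher by 1.13 in KO 1 (limma adjusted p 4.53e-08) and by 1.88 in KO 2 (limma adjusted p 2.64e-11).

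The ratio of APOBEC3G to APOBEC3F, taken within each library, was therefore not constant. The mean ratio was 0.969 ± 0.121 for KO 2, 0.672 ± 0.0538 for KO 1, 0.606 ± 0.0568 for CRISPR Control and 0.435 ± 0.0777 for WT (SD, n = 3 each). The KO 2 libraries, from 0.889 to 1.11, lay above those of every other line, and the CRISPR Control and KO 1 libraries overlapped.

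APOBEC3D (ENSG00000243811.12, 39021113 to 39033277, 7 exons), a further restriction factor with a pair of deaminase domains, was covered by few reads. Its libraries had 8, 11 and 4 reads in WT, 8, 3 and 2 in CRISPR Control, 11, 15 and 19 in KO 1 and 20, 22 and 28 in KO 2. In normalised counts the means were 7.62 ± 3.33, 4.22 ± 2.43, 15.2 ± 2.86 and 21.4 ± 6.11 in the same order of lines (SD, n = 3 each). WT and CRISPR Control overlapped, as did KO 1 and KO 2, while the lowest KO library at 11.9 lay above the highest other library at 10.0.

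By limma APOBEC3D passed the threshold in KO 2 against WT (log2 fold change 1.43, SE 0.44, adjusted p 0.0105) but not in KO 1 against WT (0.98, SE 0.44, adjusted p 0.0929). Leaving out WT replicate 3 or KO 2 replicate 3 ended the call in KO 2, with limma adjusted p 0.0644 and 0.0542. CRISPR Control lay at -0.74 against WT with a 95% interval from -1.66 to 0.19, which at this depth does not resolve a direction. Against CRISPR Control the gene was higher in KO 1 by 1.72 (limma adjusted p 0.00241) and in KO 2 by 2.17 (limma adjusted p 0.000272), and the KO clones did not pass the threshold against each other (0.45, limma adjusted p 0.454). In the annotation 83.2% of its exon bases, 2104 of 2529, are shared with a gene on the same strand, ENSG00000284554, that joins it to APOBEC3C. That gene was listed at 0 in every library, and reads that fit both genes may have been counted for neither.

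APOBEC3C (ENSG00000244509.4, 39014257 to 39020352, 4 exons) encodes a smaller enzyme with a single deaminase domain. It held 385, 377 and 360.0 normalised counts in WT and 150.3, 141 and 160.4 in CRISPR Control. In KO 1 the values were 220.4, 258 and 216, and in KO 2 691, 644 and 628. The ranges of the 4 lines did not overlap, and they stood in the order CRISPR Control, KO 1, WT, KO 2.

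From lowest to highest, APOBEC3C averaged 151 ± 9.65 in CRISPR Control, 231 ± 23.0 in KO 1, 374 ± 12.7 in WT and 654 ± 32.9 in KO 2 (SD, n = 3 each). Against WT its log2 fold change in KO 1 was -0.70, a fall (SE 0.11, limma adjusted p 4.78e-05) and in KO 2 it was 0.80, a rise (SE 0.11, limma adjusted p 3.88e-06). The distance between the clones was 1.50 (SE 0.11, limma adjusted p 2.7e-09), so the direction of APOBEC3C against WT depended on the clone. In CRISPR Control it was lower than in WT by -1.31 (SE 0.11, limma adjusted p 7.3e-09). With CRISPR Control as the reference both clones were therefore higher, KO 1 by 0.61 (limma adjusted p 6.33e-05) and KO 2 by 2.11 (limma adjusted p 2.79e-12).

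APOBEC3B (ENSG00000179750.16, 38982347 to 38992804, 8 exons) encodes a nuclear enzyme with a pair of deaminase domains. WT libraries held 1093, 888 and 935 normalised counts, and CRISPR Control libraries 212, 218 and 290.1. In KO 1 the values were 1158, 1181 and 1195, and in KO 2 1001, 1021 and 1050.3. CRISPR Control was far below every other library, KO 2 lay inside the range of WT, and KO 1 lay above it.

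The mean level of APOBEC3B was 240.3 ± 43.3 in CRISPR Control, against 1178 ± 18.7 in KO 1, 1024 ± 24.5 in KO 2 and 972 ± 107 in WT (SD, n = 3 each). The log2 fold change of CRISPR Control against WT was -2.02 (SE 0.11, limma adjusted p 1.86e-11), and 2.29% of tested genes fell at least as far. The keratins fell in the same line, KRT8 by -1.71 and KRT18 by -1.69 against WT, while VIM changed by -0.28 and CDH1 by 0.26. The summed level of KRT8, KRT18, VIM, CDH1 and CDKN2A ran from 102058 to 128564 there and from 248509 to 267450 in WT. Against WT, KRT8 and KRT18 changed by 0.06 and 0.04 in KO 1 and by -0.43 and -0.62 in KO 2. The part of these genes in the APOBEC3B result was not tested. KO 1 missed the threshold against WT at 0.28 (95% interval 0.05 to 0.51, limma adjusted p 0.0514), and passed it in 10 of 22 alternative settings, in which the adjusted p ran from 0.00627 to 0.0470. KO 2 against WT gave 0.08 with a 95% interval from -0.15 to 0.31 (limma adjusted p 0.552), and KO 2 against KO 1 gave -0.20 with an interval from -0.43 to 0.03 (limma adjusted p 0.157).

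With CRISPR Control as the reference, APOBEC3B was higher by 2.30 in KO 1 (limma adjusted p 1.11e-12) and by 2.10 in KO 2 (limma adjusted p 4.13e-12). These values differed from those against WT because of the low CRISPR Control level, since both sets used the same KO libraries. A noncoding gene on the minus strand, APOBEC3B-AS1, overlaps 12.9% of its exon bases and was listed at 0 in every library. APOBEC3A and APOBEC3B are close in sequence, and how reads that match both were assigned is not given in the sources used here.

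**Figure D2:**
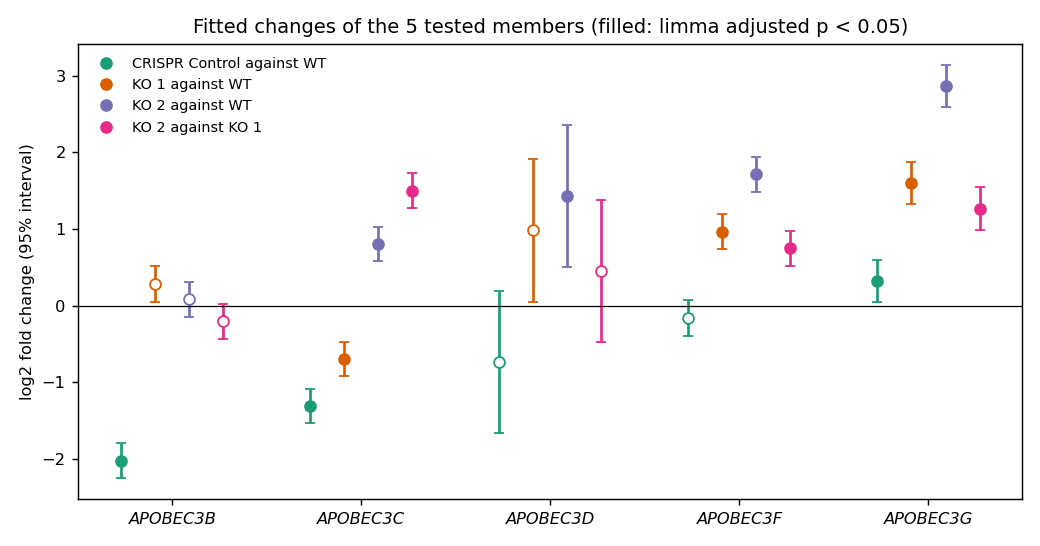
Log2 fold change (y axis) of the 5 tested members (x axis) in 4 comparisons of lines, with 95% intervals from limma over 12 libraries. Filled points passed an adjusted p of 0.05 and open points did not. APOBEC3C lies below 0 in KO 1 and above 0 in KO 2, and APOBEC3B is far from 0 in CRISPR Control only.

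By limma 3 of the 5 tested members passed the threshold in KO 1 against WT, 2 higher and 1 lower, beside 35.5% of all tested genes (18% higher and 17.5% lower). In KO 2 against WT 4 members passed, all higher, beside 55% of all genes (27.1% higher). Both comparisons used the same WT libraries. CRISPR Control against WT gave 3 members, 2 of them lower, where 53.4% of all genes passed and 26.3% were lower. A count of 3 of 5 there is close to the background share.

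All 5 tested members were higher than in CRISPR Control in both clones, where 63% of all genes passed for KO 1 (31.7% higher) and 67.7% for KO 2 (33.3% higher). For APOBEC3B and APOBEC3C this rested on a reference that was itself below WT. KO 2 exceeded KO 1 in 3 members, APOBEC3C, F and G, beside 38.2% of genes in either direction and 18.1% higher. The mean of the KO lines exceeded the mean of WT and CRISPR Control in all 5, beside 65.9% of genes in either direction and 32.9% higher. In that comparison the log2 fold change was 2.07 for APOBEC3G, 1.57 for APOBEC3D, 1.42 for APOBEC3F, 1.19 for APOBEC3B and 0.71 for APOBEC3C. For APOBEC3B and APOBEC3C the KO libraries overlapped the 6 others, so that the mean difference did not separate the libraries.

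The summed normalised count of the 7 genes was 658 ± 54.6 in CRISPR Control, 1618 ± 119 in WT, 2025 ± 32.4 in KO 1 and 2888 ± 74.9 in KO 2, each as mean ± SD of 3 libraries. The ranges did not overlap, from 626 to 721 in CRISPR Control up to 2817 to 2966 in KO 2. The family's makeup also shifted. APOBEC3B gave 60.0% ± 2.15 of the family's normalised counts in WT and 58.2% ± 0.0324 in KO 1, but 36.3% ± 3.41 in CRISPR Control and 35.5% ± 1.56 in KO 2.

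CRISPR Control and KO 2 thus had like shares of APOBEC3B at very different totals, with APOBEC3B itself low in CRISPR Control and the other tested members high in KO 2. APOBEC3G gave 20.2% ± 2.12 in KO 2, 15.1% ± 1.60 in CRISPR Control, 11.9% ± 0.628 in KO 1 and 4.93% ± 0.858 in WT. The share of APOBEC3F was 24.9% ± 1.27 in CRISPR Control, 20.9% ± 0.602 in KO 2, 17.7% ± 1.01 in KO 1 and 11.4% ± 1.02 in WT. APOBEC3C kept between 22.7% and 23.2% in WT, CRISPR Control and KO 2, and held 11.4% ± 1.13 in KO 1. Longer transcripts give more reads, so these are shares of reads and not of molecules.

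**Figure D3:**
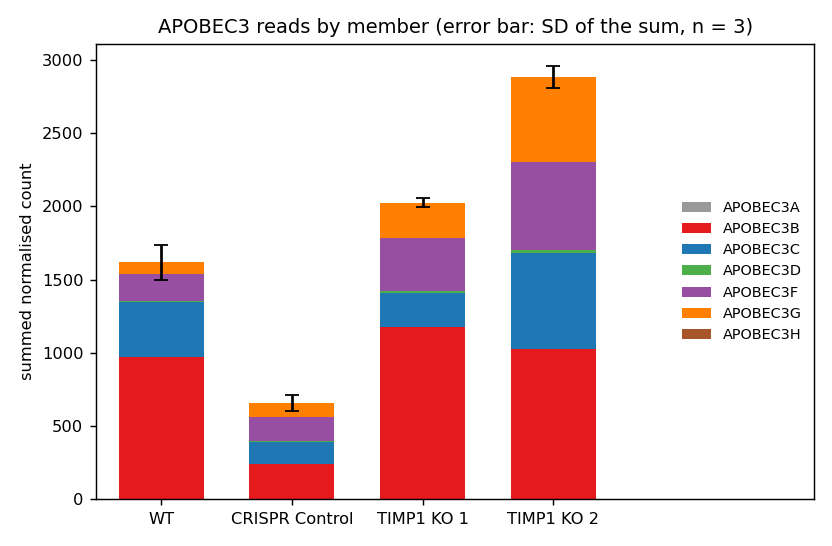
Summed normalised count of the 7 APOBEC3 genes (y axis, from 0) in each line (x axis), divided by gene, as means of 3 libraries. Error bars are the SD of the sum. The total is lowest in CRISPR Control and highest in KO 2, and APOBEC3B makes up the largest part of the bar in every line.

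Levels were compared between genes per kb of merged exons. On that scale the normalised count per kb in WT was 513 for APOBEC3B, 141 for APOBEC3C, 35.2 for APOBEC3F, 14.7 for APOBEC3G and 3.01 for APOBEC3D. In KO 2 it was 540.3 for APOBEC3B, 247 for APOBEC3C, 115 ± 3.80 for APOBEC3F, 109 ± 14.2 for APOBEC3G and 8.45 for APOBEC3D (SD, n = 3). The order was the same in both lines, and only APOBEC3F and APOBEC3G in KO 2 lay within the spread of each other. The length used for APOBEC3D includes the 83.2% of its exon bases shared with ENSG00000284554. Reads there may have been counted for neither gene, so its level per kb may be understated and its last place may come from counting.

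The place of APOBEC3G in this order depended on the length used. Its merged exons span 5375 bases and its canonical transcript 1564. Per kb of the canonical transcript APOBEC3G stood at 50.6 in WT, above APOBEC3F at 40.9, and at 373 in KO 2, above APOBEC3C at 247 and APOBEC3F at 134. APOBEC3B was the most abundant per kb in every line with either length.

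The neighbouring genes were described to see whether the whole stretch of chromosome 22 moved. All 8 genes listed on either side of the cluster passed the minimum. Against WT, 3 were higher and 0 lower in KO 1, and 2 were higher and 2 lower in KO 2. In CRISPR Control 3 were higher and 2 lower. The share that passed was near that of all tested genes in each line (35.5% in KO 1, 55% in KO 2 and 53.4% in CRISPR Control). Log2 fold changes ran from -0.17 (CBX6) to 0.36 (CBX7) in KO 1, from -1.03 (PDGFB) to 0.64 (NPTXR) in KO 2 and from -0.35 (SUN2) to 0.53 (DNAL4) in CRISPR Control.

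CBX6 and CBX7, Polycomb chromobox genes and the closest on each side, lay at -0.17 and 0.36 in KO 1 and at -0.01 and 0.26 in KO 2. CBX7 passed the threshold in both clones (limma adjusted p 0.00785 and 0.0353) and CBX6 in neither. PDGFB, a growth factor gene, fell by 1.03 on the log2 scale in KO 2 (SE 0.09, limma adjusted p 1.88e-08) and had 2422 normalised counts there against 4939 in WT. The other genes of the list, SUN2, NPTXR, RPL3 and SYNGR1 among them, stayed between -0.22 and 0.64 in both clones, and APOBEC3G and APOBEC3F lay above all 8 neighbours in KO 1 and KO 2. Along the cluster, fitted changes increased from APOBEC3B through C, D and F to APOBEC3G in KO 2 against WT and likewise in CRISPR Control against WT, though not in KO 1. This is a description of 5 genes, and the 2 comparisons share the WT libraries.

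**Figure D4:**
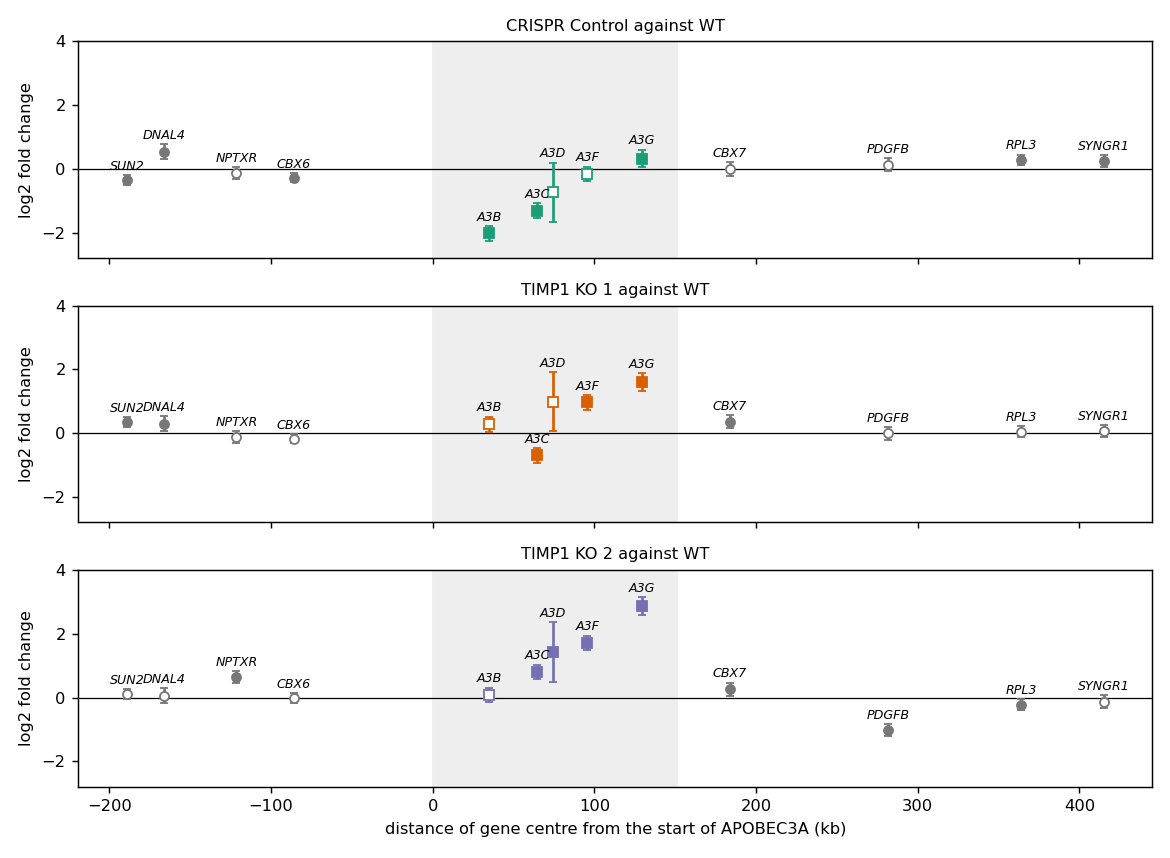
Log2 fold change against WT (y axis, with 95% intervals) of the tested APOBEC3 genes (squares) and of 8 neighbours (grey circles), by distance of each gene's centre from the start of APOBEC3A in kb (x axis), for CRISPR Control, KO 1 and KO 2. Filled symbols passed a limma adjusted p of 0.05, and the shaded band marks the cluster. APOBEC3F and APOBEC3G lie above every neighbour in KO 1 and KO 2, and APOBEC3B and APOBEC3C below every neighbour in CRISPR Control.

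Further lists gave the surroundings of the family, each against WT. Beside these lists, 35.5% of all tested genes passed the threshold in KO 1 (18% higher and 17.5% lower). In KO 2 55% passed (27.1% higher) and in CRISPR Control 53.4% (26.3% lower). Uracil that APOBEC3 enzymes leave in DNA is removed by glycosylases and repaired through abasic sites. Of 15 genes of that repair, all tested, 0 were higher and 8 lower in KO 1, 0 were higher and 11 lower in KO 2, and 5 were higher and 5 lower in CRISPR Control. The median log2 fold change was -0.24 in KO 1 and -0.49 in KO 2, where the median of all genes was 0.00 and -0.01. FEN1, a flap endonuclease, changed most in KO 1 (-0.71, limma adjusted p 1.9e-06) and LIG1, a DNA ligase, in KO 2 (-1.23, limma adjusted p 1.58e-10). Both also act in DNA replication.

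Interferon signalling, which can raise APOBEC3G and APOBEC3F, was represented by 10 receptors, kinases and transcription factors. In KO 1 5 were higher and 0 lower (median 0.21), in KO 2 5 were higher and 2 lower (median 0.70) and in CRISPR Control 3 were higher and 6 lower (median -0.42). IRF7, a transcription factor of the interferon response, changed most in both clones, by 1.32 (SE 0.11, limma adjusted p 1.3e-08) in KO 1 and 2.29 (SE 0.11, limma adjusted p 2.37e-12) in KO 2. The means were 2050 ± 216 in KO 2, 1040.3 ± 39.7 in KO 1, 416 ± 33.4 in WT and 370.4 ± 52.3 in CRISPR Control (SD, n = 3 each), so it held the same order of KO 2, KO 1 and the other lines as APOBEC3F. Members of the list fell as well, among them STAT3 in KO 2 (-0.21, limma adjusted p 0.0211).

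Other factors that restrict retroelements were listed as well. Of 13, 10 were tested, and TREX1 was listed at 0 in every library. In KO 1 3 were higher and 1 lower (median 0.11), a share near the 35.5% of all tested genes. In KO 2 6 were higher and 2 lower (median 0.47), and in CRISPR Control 1 was higher and 5 lower (median -0.28). BST2, which tethers budding virus to the cell surface, changed most, by 1.21 in KO 1 (SE 0.26, limma adjusted p 0.00133) and 6.81 in KO 2 (SE 0.26, limma adjusted p 1.94e-13). CRISPR Control also lay above WT, by 0.89 (limma adjusted p 0.00825), and KO 1 did not pass the threshold against it (0.33, 95% interval -0.22 to 0.88, limma adjusted p 0.287). Mean normalised counts were 1711 in KO 2, 34.9 in KO 1, 28.6 in CRISPR Control and 14.6 in WT.

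E2F factors and the DREAM and MYB-MuvB complexes, which control cell-cycle genes and have been tied to APOBEC3B, were covered by 20 genes. In KO 1 1 was higher and 11 lower (median -0.22), in KO 2 1 was higher and 14 lower (median -0.49), and in CRISPR Control 3 were higher and 6 lower (median -0.04). E2F1 changed most in KO 1 (-0.94, limma adjusted p 1.12e-07) and E2F8, a repressor of the family, in KO 2 (-1.53, limma adjusted p 8.94e-10). Against WT, APOBEC3B did not pass the threshold in either clone. Against CRISPR Control it was higher by 2.30 in KO 1 and by 2.10 in KO 2. The part of the E2F, DREAM and MYB-MuvB genes in the level of APOBEC3B was not tested. NF-kB and protein kinase C, a further route to APOBEC3B, were covered by 10 genes. In KO 1 1 was higher and 2 lower (median 0.04), and in KO 2 4 were higher and 2 lower (median 0.05). In CRISPR Control 1 was higher and 4 lower (median -0.20). In each line the share of this list that passed was near that of all tested genes. The part of this list in the level of APOBEC3B was not tested either. MAP3K14, the kinase of the noncanonical NF-kB route, fell by 0.64 on the log2 scale in KO 1 (limma adjusted p 1.43e-05) and PRKCE, a protein kinase C, rose by 1.33 in KO 2 (limma adjusted p 1.17e-08).

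Genes most like each member were found by Pearson's r of log2 values over the 12 libraries, which form 4 lines, so that a high r reflects 4 levels. Candidates had a mean of at least 50 normalised counts. Closest to APOBEC3G were LGALS3BP, a secreted glycoprotein (r 0.995), and ERAP2, a peptidase of antigen processing (r 0.994). For APOBEC3F they were ESAM, an adhesion molecule (r 0.995), and VNN2 (r 0.992). The WT and CRISPR Control means of VNN2 were 5.31 and 4.12 normalised counts. Those of KO 1 and KO 2 were 36.9 and 154. VNN2 therefore reached the minimum of 50 only through KO 2, the line where APOBEC3F was also highest. Its place among the candidates thus rested on that line. EZR, the membrane linker ezrin, and ACP2, a lysosomal phosphatase, both reached r 0.998 with APOBEC3B.

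PLEKHA2 (r 0.981) and NRP1, a co-receptor of semaphorins and VEGF (r 0.975), were nearest to APOBEC3C. ZNF266 (r 0.963) and CFAP54 (r 0.932) were nearest to APOBEC3D. CFAP54, at 42.3 in WT and 16.2 in CRISPR Control, likewise reached the minimum only through the KO lines. The size of the change differed where r was high. LGALS3BP went from 360.5 normalised counts in WT to 9553 in KO 2, and EZR from 23979 in WT to 14686 in CRISPR Control, a smaller relative fall than that of APOBEC3B. Among the members themselves, APOBEC3F and APOBEC3G had the highest r (0.971) and APOBEC3B and APOBEC3G the lowest (0.466).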

How the data were processed

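RNA was isolated from the 4 lines at the same confluency and sequenced in read pairs on a NovaSeq X Plus. The authors trimmed reads with Cutadapt, mapped them to GRCh38 with STAR, assigned them to genes with featureCounts and scaled the read counts by DESeq2 size factors. The strand setting and annotation release are not given in the sources used here. The deposited values are this signal, normalised counts, and 100% of positive values were whole multiples of a step per library within 0.01 reads, which gave the reads. The table also held 4 columns of line means and 1 blank line, which were not used. Each library's line and replicate number come from its title.

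The main test was limma (version 3.58.1, R 4.3.3; lmFit, contrasts.fit and eBayes with trend) on log2(normalised count + 1) over all 12 libraries, for genes with a mean of at least 10. It was two-sided, with Benjamini-Hochberg adjustment over 15987 genes and a threshold of 0.05. The pseudocount understates changes of low genes. Models were tested on simulated data. The 6 pairs of lines and the mean of the KO lines against the mean of WT and CRISPR Control were compared. Alternatives covered the minimum, pseudocount, scaling, libraries used, a replicate block, a fold limit, each library left out, edgeR 4.0.16 and DESeq2 1.42.0 on the reads. The members, lists and named-gene rule were chosen with earlier results of these data known. The rule named all members, TIMP1, the neighbours, the largest change past the threshold per list in each clone against WT, and the 2 genes most correlated with each tested member. Coordinates are from GENCODE v44 (GRCh38), which need not be the authors' release and matched 97.6% of identifiers with their version.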

Additional observations from a re-analysis of the deposited data

Results flagged for a closer look

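The change against WT differed between the KO clones in 3 members, by a test of the difference itself. As both changes were taken from the same WT libraries, this difference is that of KO 2 against KO 1. It was 1.50 on the log2 scale for APOBEC3C (SE 0.11, limma adjusted p 2.7e-09), the only tested member that passed the threshold against WT in opposite directions in the clones, 1.27 for APOBEC3G (SE 0.13, limma adjusted p 4.45e-07) and 0.75 for APOBEC3F (SE 0.11, limma adjusted p 2.93e-05). In each of the 3 genes all 3 libraries of KO 2 lay above all 3 of KO 1. This follows largely from their selection by that test on the same libraries and adds no support. The libraries of the clones were also separate for APOBEC3B, with KO 2 below KO 1, though it did not pass (-0.20, limma adjusted p 0.157). TIMP1 RNA also differed between the clones, by -0.46 (limma adjusted p 0.000398), and its part in these differences was not tested.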

How the results depend on the processing

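There were 22 alternatives for each of 35 changes (5 members in 7 comparisons), less those in which a gene fell under the minimum. Of 763 values 731 kept direction and side of the threshold, 21 lost the call, 11 gained it and 0 reversed. Leaving out a library of a line that is not compared cannot move the fold change, only its error. The direction of many values was therefore fixed in advance. The losses were APOBEC3G in CRISPR Control against WT (19 settings, limma, edgeR or DESeq2 adjusted p from 0.0521 to 0.198) and APOBEC3D in KO 2 against WT (2 settings). The gains were APOBEC3B in KO 1 against WT (10 settings) and, with the libraries of the compared lines only, in KO 2 against KO 1 (limma adjusted p 0.0189). With an absolute log2 fold change of at least 1 as a further condition, 1 member was called in KO 1 against WT in place of 3. Same-numbered libraries of different lines showed no strong tendency to deviate together (r from -0.13 to 0.16 over 18 pairs). For pairs of unlike number r ran from -0.19 to 0.13 over 36 pairs. These values cannot show whether libraries shared a culture or a preparation. With the replicate block, 2 members were called in CRISPR Control against WT (APOBEC3G gave limma adjusted p 0.0574), 3 in KO 1 and 4 in KO 2 against WT, and no other call changed. Equal library totals moved the median of all genes to 0.11 for KO 2 against CRISPR Control. Depth limits APOBEC3A, APOBEC3D and APOBEC3H. Each clone, and the control line, is a single line.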
